A study of Mus musculus with 5 samples.

Results

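Transcript levels of 44 genes of the cell cycle and of DNA replication were described in fat cells treated with plant polyphenols. The genes were listed by symbol: 11 cyclins, kinases and regulators of the G1 phase, 12 genes of S phase and DNA replication, and 21 genes of G2 and mitosis. Probe sets naming 1 listed gene were found for 43 of them, out of 18193 genes represented on the arrays, and each gene was represented by its brightest probe set. Ccnb1 was not matched and is not analysed here. The choice of the members was made with earlier results of these data known, which limits their comparison with all counted genes. Cdkn1c, which encodes the kinase inhibitor p57, and Tyms, which encodes thymidylate synthase, stayed under the floor of intensity 8.39 on all 5 arrays. That left 41 counted members, those with a value at or above the floor on some array, among 12439 genes counted in the same way. Cdc6 reached it only in DMSO1 and with resveratrol.

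The cells were C3H10T1/2, a mouse mesenchymal line that becomes adipocytes under a hormonal cocktail, and they were described as fully differentiated when treated. Treatment lasted 6 h, with butein, with sulfuretin, with resveratrol or with DMSO as solvent, and each of the 5 groups has 1 Affymetrix array. A second DMSO array, called DMSO1, is labelled as the control of resveratrol. The labels give no genetic change and no dose for any group. The stated aim was to find regulators of fat cell formation common to the compounds. With 1 array per group no difference has a replicate error and no p-value is given for one, so the values describe these arrays. The deposited values of DMSO, butein and sulfuretin lie on a shared scale and those of DMSO1 and resveratrol on another, so treatments are compared within these 2 sets, and comparisons across them are named as such. Butein and sulfuretin share the DMSO array, so an unusual value on it would move both comparisons.

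A cell enters the cycle when D-type cyclins activate CDK4 and CDK6 in G1, which releases E2F transcription factors from retinoblastoma proteins. E2F factors raise the genes of DNA replication, among them those of the MCM helicase that opens the double helix and of the enzymes that supply deoxynucleotides. A later wave of genes, transcribed in G2 and mitosis under the MuvB complex with B-MYB and FOXM1, encodes cyclin B, CDK1 and the machinery of the spindle. Differentiated adipocytes have mostly left the cycle, but cultures hold cells that did not differentiate and may still divide. In RNA from whole cultures, fewer cycling cells and less RNA per cell cannot be told apart.

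Adipocyte markers were high on all arrays. Adipoq, the adiponectin gene, read between 6122 and 7202, Fabp4, which encodes the fatty acid binding protein of adipocytes, between 7338 and 9340, and Pparg, the gene of the main adipogenic receptor, between 355 and 602. In the adipocyte list 12 of 13 matched markers reached the floor. Fibroblast and preadipocyte markers were present as well, with 8 of 10 matched markers at the floor or above. The preadipocyte genes Dlk1 and Cd34 stayed under it, while Pdgfra read between 353 and 387. In the lists of other lineages 4 of 6 osteoblast and chondrocyte, 3 of 6 skeletal muscle and 4 of 7 macrophage and blood markers reached the floor, and the highest summed intensity of these lists on any array was 256.

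Cell cycle genes of different phases are known for different short promoter elements, so 6 promoters of members with lower values under butein are shown before the levels. They run from 250 bases before to 50 after the annotated start, in RefSeq on build GRCm38.p6, and 35 of the 44 members had an entry. Capitals mark matches, on either strand, to the E2F site (TTTGGCGC, TTTCGCGC, TTTCCCGC or TTTGCCGC), to the CHR element bound by MuvB (TTTGAA or TTCGAA) and to the CCAAT box bound by NF-Y (CCAAT). Matches of the same element overlap in Mcm5, Mcm6 and Ube2c, and matches of different elements overlap in Mcm7 and Cdca8. The replication promoters are those of Mcm5 and Mcm6, 2 helicase subunits, and Rrm2, the gene of the small subunit of ribonucleotide reductase, the member with the largest difference under butein. The mitotic promoters are those of Cdk1, Ccnb2 and Ube2c, the gene of an E2 enzyme of the anaphase-promoting complex.
Mcm5, chr8:75109259-75109558, plus strand: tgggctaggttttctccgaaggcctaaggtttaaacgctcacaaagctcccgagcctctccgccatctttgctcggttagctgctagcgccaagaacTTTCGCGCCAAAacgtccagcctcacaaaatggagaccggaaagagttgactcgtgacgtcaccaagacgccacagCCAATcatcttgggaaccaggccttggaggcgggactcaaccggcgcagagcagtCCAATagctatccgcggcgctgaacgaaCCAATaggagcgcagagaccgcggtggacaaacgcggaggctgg
Mcm6, chr1:128359656-128359955, minus strand: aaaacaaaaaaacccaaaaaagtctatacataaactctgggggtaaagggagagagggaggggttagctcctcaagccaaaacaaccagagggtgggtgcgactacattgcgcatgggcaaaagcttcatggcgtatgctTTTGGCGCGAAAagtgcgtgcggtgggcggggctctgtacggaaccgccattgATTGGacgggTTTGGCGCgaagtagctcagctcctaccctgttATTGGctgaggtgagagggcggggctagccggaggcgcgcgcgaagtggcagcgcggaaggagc
Rrm2, chr12:24708004-24708303, plus strand: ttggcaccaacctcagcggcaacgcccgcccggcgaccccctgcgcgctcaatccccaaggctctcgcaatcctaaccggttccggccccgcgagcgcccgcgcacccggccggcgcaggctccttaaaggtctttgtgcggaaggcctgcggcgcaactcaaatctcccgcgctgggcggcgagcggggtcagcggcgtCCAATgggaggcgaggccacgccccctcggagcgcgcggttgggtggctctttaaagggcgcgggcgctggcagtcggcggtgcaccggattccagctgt
Cdk1, chr10:69352863-69353162, minus strand: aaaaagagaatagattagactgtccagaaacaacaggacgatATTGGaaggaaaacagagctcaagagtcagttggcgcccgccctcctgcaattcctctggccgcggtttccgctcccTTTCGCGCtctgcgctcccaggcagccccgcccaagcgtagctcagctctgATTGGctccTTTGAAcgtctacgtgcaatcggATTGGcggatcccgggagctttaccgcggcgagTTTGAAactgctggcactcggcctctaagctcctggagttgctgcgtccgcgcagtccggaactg
Ccnb2, chr9:70421505-70421804, minus strand: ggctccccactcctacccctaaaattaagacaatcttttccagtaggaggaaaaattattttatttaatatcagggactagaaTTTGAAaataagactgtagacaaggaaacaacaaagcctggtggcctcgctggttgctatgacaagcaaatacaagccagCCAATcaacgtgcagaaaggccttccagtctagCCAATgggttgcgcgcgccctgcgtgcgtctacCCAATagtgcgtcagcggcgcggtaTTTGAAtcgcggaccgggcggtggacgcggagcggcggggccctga
Ube2c, chr2:164769679-164769978, plus strand: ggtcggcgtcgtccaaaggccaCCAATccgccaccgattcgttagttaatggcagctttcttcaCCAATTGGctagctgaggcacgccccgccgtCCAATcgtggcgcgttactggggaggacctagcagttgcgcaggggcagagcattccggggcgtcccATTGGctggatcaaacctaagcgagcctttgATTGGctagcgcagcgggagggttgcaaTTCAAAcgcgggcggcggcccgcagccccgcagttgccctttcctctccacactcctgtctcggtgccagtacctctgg

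In these sequences the E2F matches of Mcm5 and Mcm6 lie upstream of the start, and the CHR matches of Cdk1 and Ube2c lie close to it. The last CHR match of Cdk1 begins 15 bases and that of Ube2c 29 bases before the start, and Ccnb2 has a CHR match 4 bases after it. The Rrm2 window holds a CCAAT box and neither of the other elements in these letters. Over the members of each role, an E2F match was found in 5 of 11 replication genes, 1 of 17 mitotic genes and 1 of 7 G1 genes, against 2.61% of 27025 genes in the promoter table. A CHR match was found in 14 of 17 mitotic genes, 2 of 11 replication genes and 0 of 7 G1 genes, against 21.7% of all genes. CCAAT occurred in 15 of 17, 8 of 11 and 3 of 7, against 41.1%. A match is a description of the letters and not evidence of binding.

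Under butein nearly all replication and mitotic members read lower than in DMSO, by less than 2-fold. At 2-fold 0 members were lower and 0 higher, against 0.297% and 2.03% of all counted genes. Of the 41 counted members 12 were at least 1.5-fold lower, the criterion used throughout, and 0 were 1.5-fold higher. Over all counted genes 2.47% were lower and 5.01% higher by that criterion. Any decrease was seen in 35 members, or 85.4%, against 37.1% of all counted genes, and any increase in 2 against 33.0%. The median log2 difference was -0.39 over the members and 0 over all counted genes. By role it was -0.50 for 11 S phase members, -0.40 for 20 members of G2 and mitosis and -0.07 for 10 G1 members. On the brightest probe sets all 11 S phase members were lower, Cdc6 among them with values under the floor, and so were 19 of 20 mitotic members. The exception, Tpx2, a spindle assembly factor gene, read 11.2 in both arrays. In the 2 roles together 11 of 31 members passed the criterion, whereas Ccnd3 was the 1 G1 member that did. With the probe sets of a gene averaged, 7 members were lower by the criterion, and with DMSO1 as control after joint quantile normalization 24 were lower and 1 higher. That last setting crosses the sets of arrays. The share of all counted genes was not computed in either setting, so the 7 and the 24 cannot be set against a background.

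**Figure D1:**
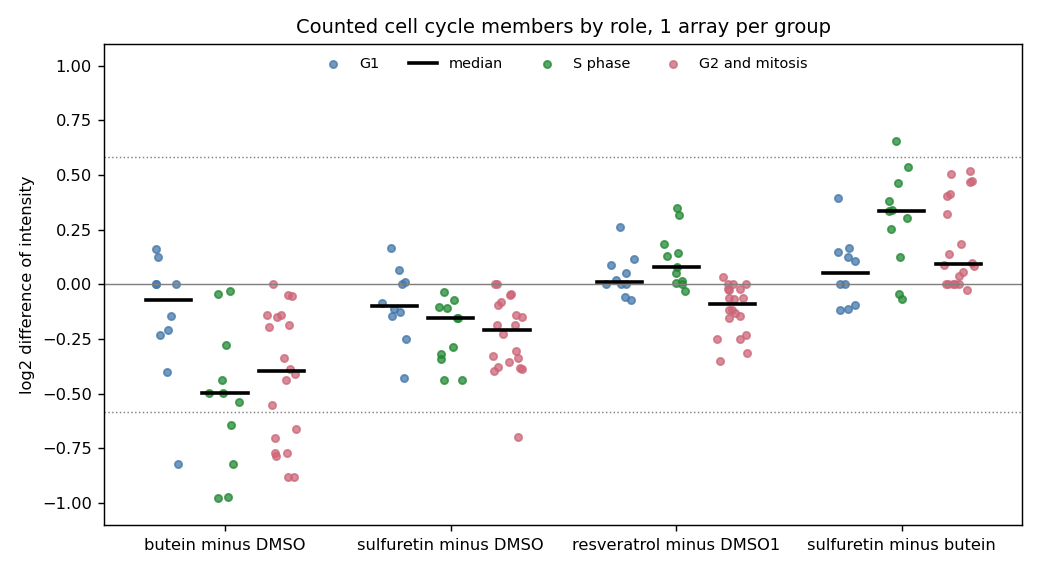
Log2 difference of intensity (vertical axis) of the 41 counted members, a point each, in 4 comparisons of 1 array with 1 array (horizontal axis), coloured by role. Bars are medians and dotted lines the 1.5-fold criterion. Under butein the S phase and mitotic medians are -0.50 and -0.40, and under resveratrol they lie at 0.08 and -0.09, on opposite sides of 0.

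The MCM genes encode the 6 subunits of the replicative helicase. Mcm4 read 177 in DMSO, 90.0 with butein, 130 with sulfuretin, 224 in DMSO1 and 237 with resveratrol. Mcm5 read 94.7, 53.6, 69.9, 125 and 138 on the arrays in the same order. Mcm6 read 149, 103, 122, 266 and 291. In all 3 genes butein was the lowest of its set of 3 arrays and sulfuretin lay between butein and DMSO, and resveratrol was above DMSO1 on these probe sets. The second probe sets of Mcm4 and Mcm6 gave -0.06 and -0.04 under resveratrol, the opposite direction. The log2 differences under butein were -0.97 for Mcm4, -0.82 for Mcm5, -0.54 for Mcm6, -0.50 for Mcm3, -0.28 for Mcm2 and -0.04 for Mcm7. These amounts were unequal, but they also varied between probe sets of the same gene. Other probe sets at or above the floor gave -0.27 for Mcm5, -0.76 for Mcm6 and -0.64, -0.34 and 0 for Mcm3, while that of Mcm4 gave -0.89. That of Mcm2 gave -0.15, and those of Mcm7 gave 0.04, -0.01 and 0, so the direction of Mcm7 turned with the probe set. Under sulfuretin the 6 differences on the brightest probe sets lay between -0.44 (Mcm4 and Mcm5) and -0.03 (Mcm3). Other probe sets of Mcm3 gave -0.28, -0.06 and 0 there. Those of the other MCM genes at or above the floor gave -0.18 for Mcm4, -0.27 for Mcm5, -0.05 for Mcm6 and 0 for Mcm2. For Mcm7 they gave 0.04, -0.08 and 0.

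Ribonucleotide reductase makes deoxynucleotides, and its small subunit is produced mainly in S phase. Rrm2, the gene of that subunit, read 131 in DMSO, 66.4 with butein, 105 with sulfuretin, 150 in DMSO1 and 191 with resveratrol. Its difference under butein, -0.98, was the largest among the members and just short of 2-fold. Rrm1, for the large subunit, read 122, 78.3, 96.6, 181 and 182. It differed by -0.64 under butein, by -0.34 under sulfuretin and by 0.007 under resveratrol. Tk1, the thymidine kinase gene, read 60.8, 43.1, 54.6, 96.1 and 94.0, and differed by -0.50 under butein. Pcna, which encodes the sliding clamp of DNA polymerases, read 718, 704, 684, 906 and 1028, and differed by -0.03 under butein. Cdc6, the gene of a loader of the helicase, read 7.32, 5.41 and 6.82 in DMSO, with butein and with sulfuretin, so its difference of -0.44 under butein lies between values under the floor.

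Of the mitotic members 7 passed the criterion under butein. Cdk1, the mitotic kinase gene, read 146 in DMSO, 84.8 with butein, 112 with sulfuretin and 148 both in DMSO1 and with resveratrol. Top2a, for the topoisomerase that untangles sister chromatids, read 122, 66.3, 94.1, 171 and 175. Ube2c read 59.4, 32.3, 36.6, 90.8 and 73.1. In each of these 3 genes butein was the lowest of its set, and sulfuretin lay between butein and DMSO. Under butein the log2 differences were -0.79 for Cdk1 and -0.88 for both Top2a and Ube2c.

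Birc5, the survivin gene of the chromosomal passenger complex, read 75.6, 44.3, 61.3, 95.8 and 88.4 in the order DMSO, butein, sulfuretin, DMSO1 and resveratrol. Ccnb2, for cyclin B2, read 27.7, 16.2, 21.6, 68.7 and 57.8. Ccna2, for cyclin A2, which acts from S phase into mitosis, read 67.5, 42.7, 59.3, 104 and 93.4. Kif11, a spindle motor gene, read 17.1, 10.5, 15.1, 30.8 and 28.1, close to the floor. In all 4 butein was again the lowest of its set, and they too passed the criterion under butein, with differences of -0.77, -0.77, -0.66 and -0.70. Cdca8, for another passenger protein, followed at -0.55. Smaller differences under butein were those of the centromeric histone gene Cenpa (-0.44), the anaphase activator gene Cdc20 (-0.41), the checkpoint kinase gene Bub1b (-0.39) and the proliferation marker gene Mki67 (-0.34).

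The remaining mitotic members lay between -0.20 and -0.05 under butein apart from Tpx2: the Aurora kinase genes Aurkb (-0.20) and Aurka (-0.15), the kinesin gene Kif20a (-0.18), the checkpoint genes Bub1 (-0.14) and Mad2l1 (-0.14), the spindle midzone gene Prc1 (-0.05) and the polo-like kinase gene Plk1 (-0.05). In this group Plk1, Aurka, Aurkb, Kif20a and Bub1 had DMSO intensities between 10.8 and 17.7. These are close to the floor of 8.39.

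**Figure D2:**
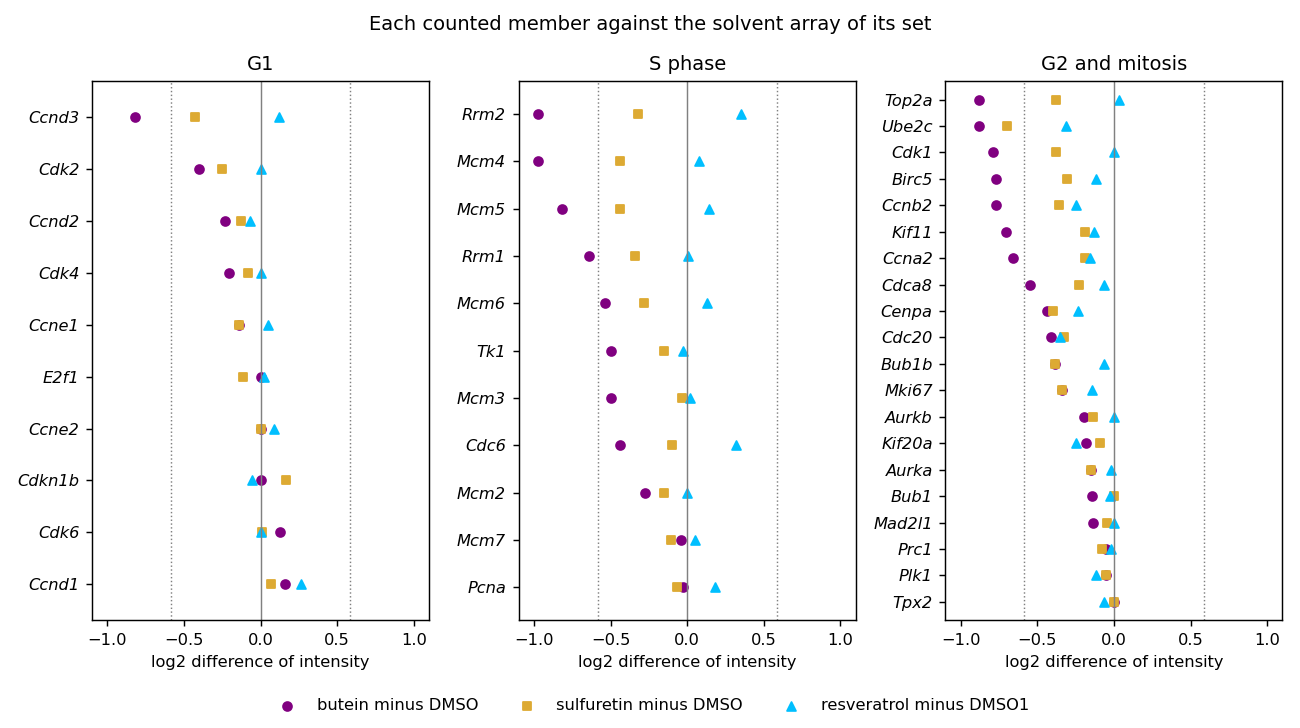
Log2 difference of intensity (horizontal axis) of each counted member (rows) against the solvent array of its set, in 3 panels by role. Circles are butein, squares sulfuretin and triangles resveratrol, 1 array each, and dotted lines mark 1.5-fold. Circles reach -0.98 at Rrm2, squares -0.70 at Ube2c, and triangles stay between -0.35 and 0.35.

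G1 members went in several directions. The D-type cyclins bind CDK4 and CDK6 and are the genes through which growth signals reach the cycle. Ccnd1 read 286 in DMSO, 320 with butein, 299 with sulfuretin, 273 in DMSO1 and 327 with resveratrol. Ccnd2 read 796, 678, 730, 1086 and 1035. Ccnd3, which is known to be kept in differentiated cells, read 105, 59.3, 78.0, 193 and 209. Ccnd1 was above its control on all 3 treated arrays on this probe set, by 0.16, 0.06 and 0.26. Its 2 other probe sets gave -0.11 and 0.06 under butein, -0.16 and -0.06 under sulfuretin and 0.09 and 0.27 under resveratrol, so the direction under butein and sulfuretin turned with the probe set. Ccnd2 was below its control on all 3, with differences of -0.23, -0.13 and -0.07. Its other probe sets were lower as well, between -0.58 and -0.25 under butein and between -0.54 and -0.25 under sulfuretin. Under resveratrol they lay between -0.19 and -0.05. Ccnd3 differed by -0.82 under butein and -0.43 under sulfuretin but by 0.12 under resveratrol.

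None of the other G1 members reached 1.5-fold. Cdk2, the partner of cyclins E and A, differed by -0.40 under butein and -0.25 under sulfuretin. Cdk4 differed by -0.21 and -0.08, and Cdk6 by 0.13 and 0.01. Other probe sets of Cdk4 gave -0.41 and -0.32 under butein and -0.20 and -0.11 under sulfuretin, and those of Cdk6 gave 0 under both. The E cyclin genes, which carry cells into S phase, read 27.7, 25.0 and 25.0 for Ccne1 and 23.7 on each array for Ccne2 in DMSO, butein and sulfuretin. E2f1, an activating E2F gene, read 20.9, 20.9 and 19.3 there. Cdkn1b, which encodes the CDK inhibitor p27, read 59.3, 59.3 and 66.5 on these arrays, and on the scale of the other set 287 in DMSO1 and 275 with resveratrol. Under resveratrol the brightest probe sets of these 7 genes stayed within 0.09 of DMSO1, and those of Cdk2, Cdk4 and Cdk6 had exactly the same values on both arrays. Such exact ties, within 1e-06 on the log2 scale, were seen in 33.1% of all counted genes for resveratrol, 32.5% for sulfuretin and 29.9% for butein.

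**Figure D3:**
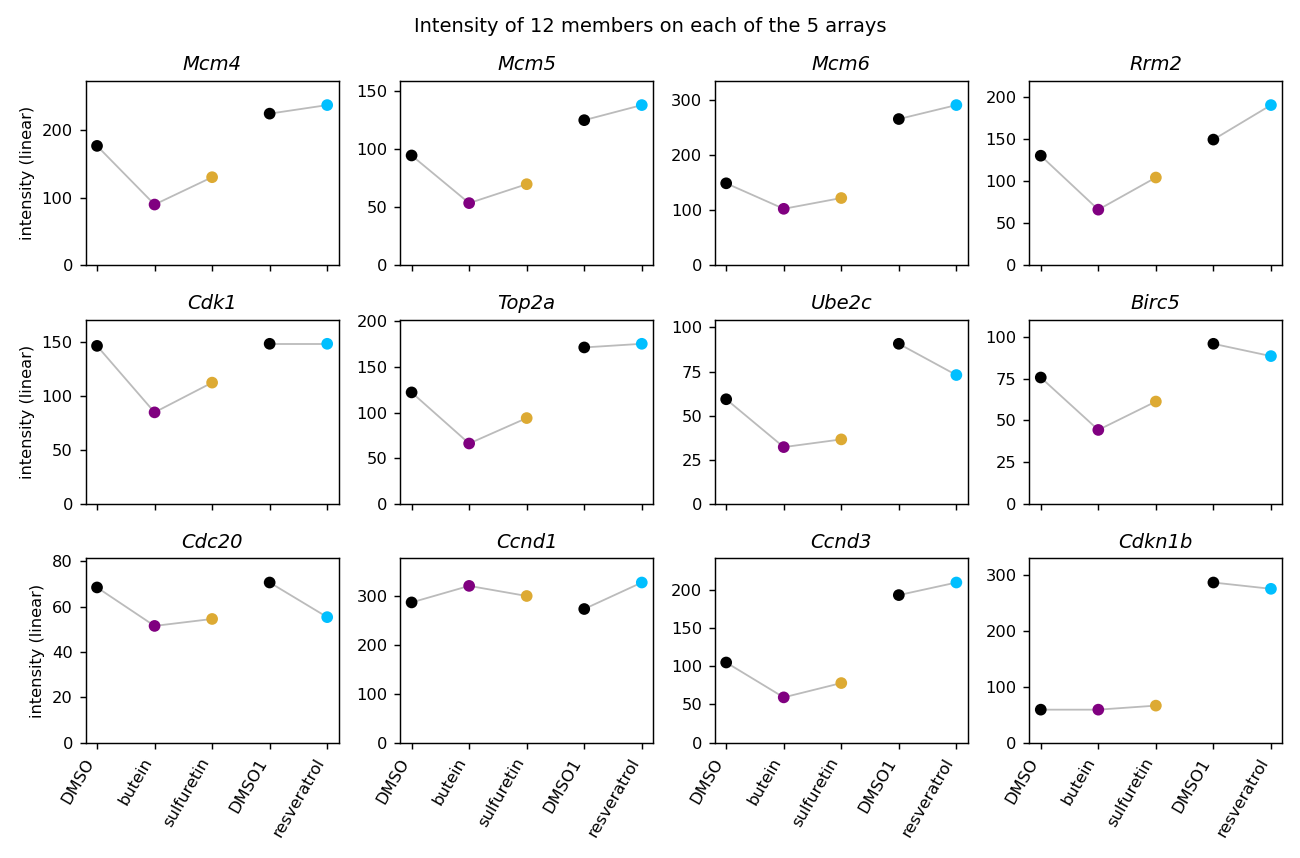
Linear intensity (vertical axis, from 0) of 12 members on each of the 5 arrays (horizontal axis), 1 point per array, with lines joining the arrays that share a scale. In Mcm4 the points are 177, 90.0 and 130 for DMSO, butein and sulfuretin, and in Cdkn1b 59.3, 59.3 and 66.5, with 287 and 275 on the other scale in DMSO1 and with resveratrol.

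Under sulfuretin most members read lower than in DMSO, by small amounts. Compared with DMSO, 35 of 41 members were lower, or 85.4% against 32.6% of all counted genes, and 3 higher, against 34.8%. At 1.5-fold 1 member was lower, Ube2c (-0.70), and 0 were higher, against 0.378% and 1.36% of all counted genes, and at 2-fold 0 were lower and 0 higher, against 0.0482% and 0.193%. The median was -0.15 over the members, -0.15 for S phase, -0.21 for G2 and mitosis and -0.10 for G1. On the brightest probe sets all 11 S phase members, Cdc6 with values under the floor among them, and 18 of 20 mitotic members were lower. Bub1 and Tpx2 were tied with DMSO. After Ube2c the lowest were Mcm4 and Mcm5 (-0.44 each), Ccnd3 (-0.43), Cenpa (-0.40), Bub1b (-0.39), Cdk1 (-0.38) and Top2a (-0.38). Cdkn1b was the highest, at 0.17. With DMSO1 as control after joint quantile normalization 15 members were lower by 1.5-fold, and the share of all counted genes in that setting was not computed. Because the DMSO array is shared, the likeness of these directions to those under butein is not an independent result.

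Butein is a chalcone and sulfuretin an aurone, in which the open bridge of the chalcone is closed into a furanone ring, and both carry a catechol. Set directly against each other, without the solvent array, sulfuretin read higher than butein in 28 of 41 members and lower in 6, that is 68.3% against 37.0% of all counted genes and 14.6% against 30.1%. At 1.5-fold 1 member was higher, Rrm2 (0.66), and 0 were lower, against 0.981% and 2.83% of all counted genes. At 2-fold 0 were higher and 0 lower, against 0.0965% and 1.04%. The median was 0.34 for S phase, 0.09 for G2 and mitosis, 0.05 for G1 and 0 over all counted genes. The next largest differences were those of Mcm4 (0.54), Kif11 (0.52), Top2a (0.51), Ccna2 (0.47), Birc5 (0.47) and Mcm3 (0.46). Ube2c differed by 0.18, and 7 members were tied: Mki67, Bub1b, Ccne1, Ccne2, Plk1, Aurka and Tpx2. This is the 1 pair of related compounds compared, at the same time of treatment. Whether the doses matched is not given in the labels, and with 1 array each the difference has no interval.

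Resveratrol, a stilbene, was compared with DMSO1, and the S phase and mitotic members lay mostly on opposite sides of it. At 1.5-fold 0 of 41 members were lower and 0 higher, against 0.362% of all counted genes lower and 0.338% higher. At 2-fold both counts were 0 as well, against 0.0643% and 0.0804%. Of 11 S phase members 9 read higher and 1 lower, whereas of 20 mitotic members 16 read lower and 1 higher. Over all counted genes 32.9% read higher and 34.0% lower. The medians were 0.08 for S phase, -0.09 for G2 and mitosis and 0.01 for G1, with 0 over all counted genes. With 1 array a side the split could not be tested. Set against the DMSO array after joint quantile normalization of all 5 arrays, the mitotic median was 0.06, on the other side of 0.

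In S phase the largest differences under resveratrol were those of Rrm2 (0.35) and Cdc6 (0.32), followed by Pcna (0.18), Mcm5 (0.14) and Mcm6 (0.13). Cdc6 read 17.7 in DMSO1 and 22.1 with resveratrol. Among mitotic genes Cdc20 was the lowest, reading 70.7 in DMSO1 and 55.4 with resveratrol, a difference of -0.35. Ube2c followed at -0.31, then Kif20a and Ccnb2 (-0.25 each) and Cenpa (-0.23). Of these, Cdc20 and Ube2c act with the anaphase-promoting complex, which ends mitosis by marking cyclin B for degradation. Cdk1 was tied with DMSO1 and Top2a differed by 0.03. The highest G1 member was Ccnd1, at 0.26.

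Dimmer probe sets of the same genes mostly went the same way under butein, and few passed the criterion. The counted members had 44 other probe sets at or above the floor, belonging to 26 genes. Under butein, where the brightest probe set differed from DMSO in 39 of these pairs, 30 others went the same way, 7 were tied and 2 went the opposite way. The 12 genes past 1.5-fold had 10 such probe sets, of which 9 were lower and 3 past the criterion, namely for Mcm4 (-0.89), Rrm2 (-0.85) and Ccna2 (-0.59). The dimmest probe set of Rrm2 gave -0.20. For Kif11 the others gave 0 and -0.18, for Rrm1 -0.22, for Mcm5 -0.27 and for Ccnd3 -0.09, on probe sets that were dimmer. Under sulfuretin fewer went the same way, 25 of 41 pairs, with 11 tied and 5 opposite. Under resveratrol 24 of 38 pairs went the same way, 9 were tied and 5 opposite. The 2 dimmer probe sets of Rrm2 were higher there too (0.26 and 0.34), and those of Cdc20 lower (-0.20 and -0.12).

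**Figure D4:**
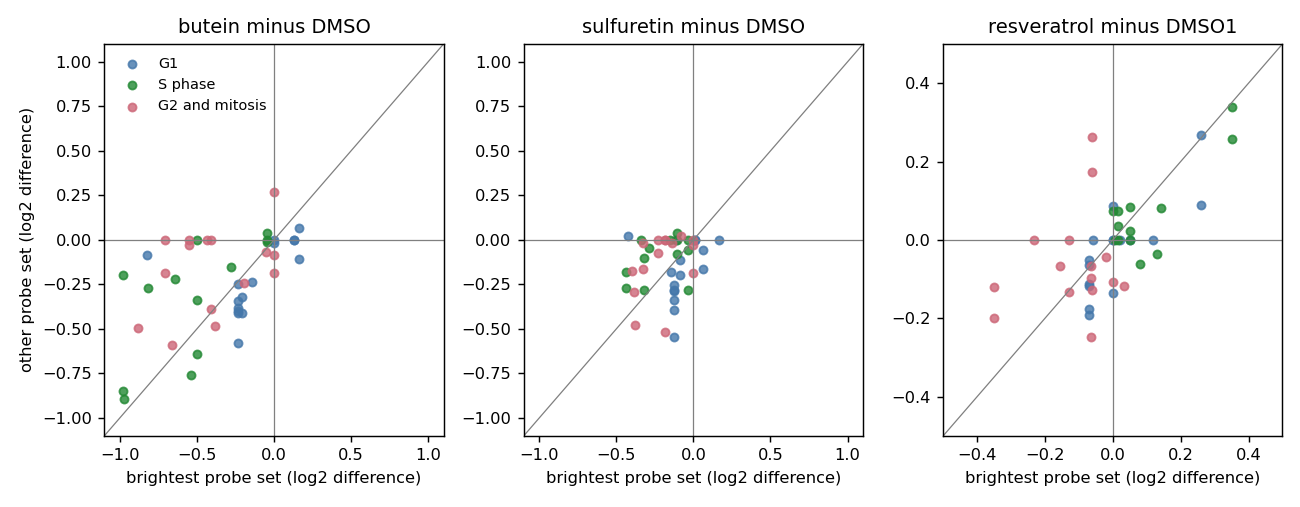
Log2 difference on each of 44 other probe sets (vertical axis) against that on the brightest probe set of the same gene (horizontal axis), in 3 panels for the treatments, coloured by role. The diagonal marks equal values. Under butein 30 of 39 pairs share a direction, 7 are tied on the other probe set and 2 lie in opposite directions.

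Wider lists of replication and mitotic genes had smaller shifts than the members under butein and sulfuretin. Members and lists were chosen with earlier results of these data known, so this difference is a description and was not tested. Of 45 other counted replication genes 32 were lower and 6 higher under butein, or 71.1% and 13.3% against 37.1% and 33.0% of all counted genes, with a median of -0.15. At 1.5-fold 2, or 4.44%, were lower, a share near the 2.47% of all counted genes. These were Rpa3 (-0.78), for a subunit of the single-strand binding protein RPA, and Rfc4 (-0.66), for a subunit of the clamp loader. Of 42 other mitotic genes 30 were lower and 1 higher, or 71.4% and 2.38%, with a median of -0.22. Lower at 1.5-fold were 5, or 11.9%, led by the condensin gene Smc2 (-0.74), the securin gene Pttg1 (-0.71) and the cytokinesis gene Racgap1 (-0.65). The 1 higher gene, Ccnf, for cyclin F, read 6.03 in DMSO, under the floor, and 16.2 with butein. With a gene's probe sets averaged, Rfc4 (-0.43), Smc2 (-0.30), Pttg1 (-0.33) and Racgap1 (-0.29) no longer reached 1.5-fold. Under sulfuretin the medians of these lists were -0.06 and 0, and under resveratrol 0.003 and -0.04, with 0 genes past 1.5-fold in either list.

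Other regulators of the cycle were as often higher as lower under butein. Of 29 other counted inhibitors and transcription regulators 12 were higher and 12 lower, or 41.4% each against 33.0% and 37.1% of all counted genes, and the median was 0. At 1.5-fold 4 were higher and 2 lower, or 13.8% and 6.90% against 5.01% and 2.47%. Myc, a transcription factor gene that drives cell growth and entry into the cycle, read 48.5 in DMSO, 218 with butein, 76.0 with sulfuretin, 75.1 in DMSO1 and 88.8 with resveratrol. It was 4.50-fold higher under butein and 1.57-fold higher under sulfuretin, the 1 gene of the 3 wider lists past 1.5-fold there. Cdk7, for the CDK-activating kinase, differed by 0.83 under butein, and E2f6, a repressive E2F gene, by 0.75. With probe sets averaged these were 0.22 and 0.37, under the criterion. Cdkn2c, which encodes the CDK4 and CDK6 inhibitor p18, differed by -0.72 under butein and -0.52 under resveratrol. Cdkn1a, the gene of the CDK inhibitor p21, is named outside the rule, after its values were seen: it read 216, 332, 176, 195 and 268 in the order of the arrays above. It was higher under butein (0.62) and resveratrol (0.46) and lower under sulfuretin (-0.30).

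Cell type marker lists differed in the same comparisons, and their part in the cell cycle values was not tested. Under butein the mature adipocyte list had a median of -0.26 with 11 of 12 genes lower, or 91.7% against 37.1% of all counted genes. Its summed intensity was 26436 in DMSO, 22952 with butein and 26473 with sulfuretin. The fibroblast and preadipocyte list had a median of -0.08, with summed intensities of 20657, 19242 and 20352. Under sulfuretin the 2 medians were 0.006 and -0.03, and under resveratrol -0.09 and -0.03. Under resveratrol 11 of 12 adipocyte markers were lower, or 91.7% against 34.0% of all counted genes. Their summed intensities were 28284 in DMSO1 and 26630 with resveratrol, and their median was of the size of the mitotic median. The fibroblast sums were 18685 and 18729. Between sulfuretin and butein 10 of 12 adipocyte markers were higher with sulfuretin, with a median of 0.21 against 0.12 for the cell cycle members. Of the fibroblast markers 6 of 8 were higher, with a median of 0.05. These are 83.3% and 75%, against 37.0% of all counted genes.

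The 2 solvent arrays, compared across the sets, differed from each other in these genes. On the deposited scales the median log2 difference between DMSO1 and DMSO was 0.54 over all counted genes, and 40 of 41 members read higher in DMSO1, against 87.4% of all counted genes. At 1.5-fold 25 of the 41 were higher and 0 lower, against 45.9% and 1.69%, and at 2-fold 13 were higher and 0 lower, against 18.2% and 0.547%. The members' median difference was 0.69, up to 2.31 for Aurkb and 2.27 for Cdkn1b. After joint quantile normalization of the 5 arrays it was 0.10 over the members and -0.07 over all counted genes, and the members ranged from -0.61 to 1.75. The sign of this difference depends on which solvent array is subtracted. In size the range reached 1.75, more than any member's deposited-scale difference under butein (largest -0.98, Rrm2), sulfuretin (largest -0.70, Ube2c) or resveratrol. Differences between the samples and between the sets of arrays cannot be told apart here. With each treated array set against the other solvent array on the joint scale, the members' median was -0.67 for butein, -0.33 for sulfuretin and 0.12 for resveratrol.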

How the data were processed

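Expression in 5 RNA samples was measured on Affymetrix mouse arrays, from 500 ng of total RNA per the labels' protocols. The authors deposited linear intensities (1.40 to 9340), made with RMA per the submitters' processing notes. Its version and background step: not given in the sources used here. Sorted values coincide within DMSO, butein and sulfuretin and within DMSO1 and resveratrol, but not between these sets, so each treatment was compared within its set. Log2 was taken, with no pseudocount. The platform annotation named 1 gene for 34945 of 45037 probe sets; 932 with several and 9160 unnamed were left out. Symbols were updated by gene ID through RefSeq (GRCm38.p6).

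The floor was the median, over probe sets, of the mean log2 intensity, and a gene counted if any array reached it. No test was possible within a comparison; differences of at least 1.5-fold were counted. All 44 members, up to 4 genes per wider list and comparison past 1.5-fold, and marker genes were named. Members and lists were chosen with earlier results of these data known. The procedure was tested on simulated data. Alternatives, limma among them, are listed in the closing section. Software was limma 3.58.1 under R 4.3.3, and matplotlib 3.10.9, statsmodels 0.14.6, scipy 1.17.1, pandas 2.3.3 and numpy 2.4.6 under Python 3.11.15.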

Additional observations from a re-analysis of the deposited data

How the results depend on the processing

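Precision is limited by having 1 array per group, so a value was called moved when it changed by 0.1 or more on the log2 scale, or a count by over 1.5 times. No paired analysis was possible because no group has a second array. With no floor, a floor at percentile 75, joint quantile normalization, median centring or loess correction, the counts and medians of all 4 comparisons with a compound stayed within these limits. The cause of the larger moves was not tested. Where the other solvent array or the mean of both was the control, shares of all counted genes were not computed. On the deposited scales 45.9% of all counted genes were at least 1.5-fold higher in DMSO1 than in DMSO.

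Under butein the count of lower members was 22 at a log2 criterion of 0.32, 0 at 2-fold and 7 when a gene's probe sets were averaged, which also gave medians of -0.23 (members) and -0.24 (mitosis). With 16 added to each intensity the medians were -0.23 (members), -0.38 (S phase) and -0.26 (mitosis). Against the other solvent array 35 members were lower, with medians of -1.29 (members), -1.23 (G1), -1.21 (S phase) and -1.37 (mitosis), and against the mean of both 29, with -0.91, -0.65, -0.93 and -0.95. Joint quantile normalization with the other solvent array, an alternative chosen after the data had been seen, gave 24 lower, 1 higher and medians of -0.67, -0.50, -0.67 and -0.67. Ccnf turned to -0.46 against the other solvent array.

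Under sulfuretin the count of lower members was 12 at a log2 criterion of 0.32 and 0 at 2-fold or with 16 added. Against the other solvent array it was 32, with medians in the same order of -0.91, -1.17, -0.81 and -1.04, against the mean of both 23, with -0.61, -0.69, -0.48 and -0.63, and with joint quantile normalization and the other array 15, with -0.33, -0.50, -0.27 and -0.38. Between sulfuretin and butein 14 members were higher at a log2 criterion of 0.32, and 0 at 2-fold, with 16 added or without probe sets marked _s_at or _x_at.

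Under resveratrol 1 member was lower and 1 higher at a log2 criterion of 0.32. Against the other solvent array 22 were higher, with medians of 0.69, 0.99, 0.55 and, reversed, 0.74, and against the mean of both 7, with 0.35, 0.51, 0.34 and, reversed, 0.32. With joint quantile normalization and the other array 7 were higher and 1 lower, with 0.12 (members), 0.35 (G1) and, reversed, 0.0557 (mitosis).

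Between DMSO1 and DMSO the members' median was 0.10 with joint quantile normalization, 0.16 with centring and 0.20 with loess correction. It was 0.52 with 16 added and 0.81 without _s_at and _x_at probe sets. The count of higher members was 5, 12 and 10 in the first 3 of these settings. Shares of all counted genes and counts of lower members were not computed there. After joint quantile normalization the lowest member difference was -0.61.

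Taking DMSO and DMSO1 as replicates after joint quantile normalization, with 1 residual degree of freedom, limma at an adjusted p of 0.05 called 0 members and 0 of all genes in each of the 4 comparisons. Unadjusted p was under 0.05 for 292 higher and 61 lower genes under butein, 4 of them members, 29 and 8 under sulfuretin, 18 and 12 under resveratrol and 9 and 102 for sulfuretin against butein, with 0 members in the last 3.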
